A study of Homo sapiens with 2 samples.

Results

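The 9 genes described here belong to the transforming growth factor beta (TGF-beta) pathway: the ligands TGFB1, TGFB2 and INHBA, the receptors TGFBR1 and TGFBR2, the signal transducer SMAD3, the inhibitors SMAD7 and SKIL, and the matrix gene TGFBI. They were chosen by symbol from the deposited tables, which list 60616 genes, and all 9 were found once each. The cells were HSC-3, an established human head and neck squamous cell carcinoma (HNSCC) line, grown in DMEM with 5% FBS. One culture received 1 µM FIN56, a small molecule that induces ferroptosis (an iron-dependent cell death driven by lipid peroxidation), for 48 h, and the other received the vehicle, 0.1% DMSO, for which the labels give no time of its own. The comparison addresses how sublethal ferroptotic stress alters the transcriptome of HNSCC cells. Each condition was sequenced as 1 RNA library, so differences lack a replicate check and are given without a p-value.

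TGF-beta ligands are secreted in a latent form and act through a pair of kinase receptors, of which the type II receptor binds the ligand and the type I receptor phosphorylates SMAD2 and SMAD3. These enter the nucleus with SMAD4 and switch genes on or off, among them SMAD7 and SKIL, which then dampen the signal. In squamous epithelium the pathway is known for restraining proliferation, and in carcinoma cells for matrix production and epithelial-mesenchymal transition.

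The depth was 70184517 expected counts for DMSO and 73062209 for FIN56, where an expected count is an RSEM estimate that splits reads shared by several genes. FPKM, a level scaled for effective gene length and library size, was above 0 in both libraries for 24454 genes, and 15770 of these had at least 50 expected counts in the 2 libraries together. All 9 genes were in this last set. Markers of epithelium were abundant in both libraries, and the 6 measured had a summed FPKM of 4137 with DMSO and 3802 with FIN56. The 6 fibroblast markers summed to 1.01 and 0.84, with COL1A2 at 0 expected counts in both libraries. Of the 4 leukocyte markers, PTPRC and CD3E were at 0 expected counts, and CD68, a lysosomal gene that epithelial cells may also express, held an FPKM of 57.27 and 24.58. The 4 endothelial markers summed to 0.08 in each library.

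None of the 9 genes had an FPKM ratio (FIN56 over DMSO) of 1.5 or more, the threshold the study used for higher genes, or of 1/1.5 or less. Of all genes with an FPKM above 0, 14.7% were at 1.5 or more and 17.3% at 1/1.5 or less, and of those with at least 50 expected counts, 6.84% and 10.1%. Both receptors and both inhibitors were higher in the FIN56 library, by 1.08 to 1.29 times. TGFB2, INHBA, SMAD3 and TGFBI were lower, with ratios of 0.815 to 0.90, while TGFB1 stood at 1.01 by FPKM and below 1 by counts. An FPKM ratio above 1 was thus found for 5 of the 9 genes, against 52% of all genes with at least 50 expected counts, and one below 1 for 4, against 47.3%. Count ratios, scaled by library totals, had a 95% counting interval above 1 in 4 of the 9 genes (34.2% of all genes with at least 50 expected counts), below 1 in 4 (33.7%), and holding 1 in TGFB1. Such intervals leave out 1 for 67.9% of those genes, so a share of 8 in 9 is read against a high background. Intervals narrow as counts rise, and this background was not matched to the 9 genes for counts. The intervals are exact Clopper-Pearson intervals, cover counting error only, and compare the 2 libraries, not the conditions. In bulk RNA, fewer cells that express a gene and less of its RNA per cell cannot be told apart.

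**Figure D1:**
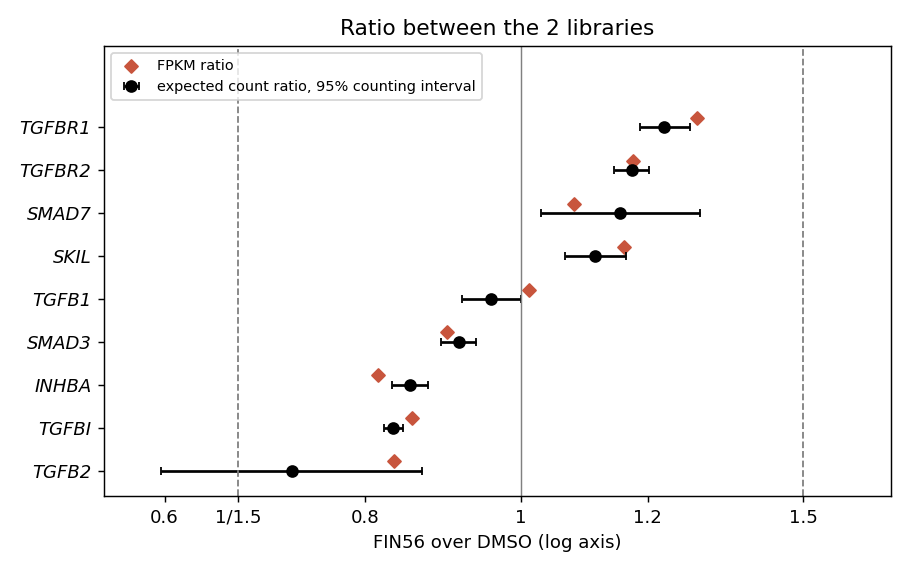
Ratio of the FIN56 to the DMSO library (x axis, log scale) for each of the 9 genes (y axis). Black points are expected count ratios scaled by library totals with their 95% counting intervals, red diamonds are FPKM ratios, and dashed lines mark 1/1.5 and 1.5. The count ratios run from 0.721 for TGFB2 to 1.23 for TGFBR1, and no FPKM ratio crosses a dashed line.

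Promoter sequences are shown for 4 genes, namely those with the lowest and the highest count ratio (TGFB2 and TGFBR1) and the pair of feedback inhibitors (SMAD7 and SKIL), to show where the core letters of the SMAD binding element, CAGAC on either strand, lie. Each is the stretch of 250 bases before the transcription start, 5′ to 3′ on the strand of the gene, from RefSeq on GRCh38.p14, with CAGAC or its complement GTCTG in capitals. TGFB2 is read from chr1:218345086-218345335 on the plus strand, TGFBR1 from chr9:99104863-99105112 on the plus strand, SMAD7 from chr18:48950966-48951215 on the minus strand, and SKIL from chr3:170357465-170357714 on the plus strand.
TGFB2: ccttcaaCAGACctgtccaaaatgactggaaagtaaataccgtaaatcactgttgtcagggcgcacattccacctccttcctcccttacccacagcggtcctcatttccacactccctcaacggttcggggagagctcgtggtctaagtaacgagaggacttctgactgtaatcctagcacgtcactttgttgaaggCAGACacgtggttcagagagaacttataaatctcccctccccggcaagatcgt
TGFBR1: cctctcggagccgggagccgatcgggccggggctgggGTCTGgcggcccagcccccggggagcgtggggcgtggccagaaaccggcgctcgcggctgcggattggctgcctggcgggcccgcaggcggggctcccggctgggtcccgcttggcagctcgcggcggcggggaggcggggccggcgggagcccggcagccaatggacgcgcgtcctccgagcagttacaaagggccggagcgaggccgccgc
SMAD7: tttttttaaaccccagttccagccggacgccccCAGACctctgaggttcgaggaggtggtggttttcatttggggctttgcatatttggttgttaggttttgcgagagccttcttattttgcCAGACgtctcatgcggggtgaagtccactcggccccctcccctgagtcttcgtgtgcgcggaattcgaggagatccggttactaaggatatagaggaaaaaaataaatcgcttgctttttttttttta
SKIL: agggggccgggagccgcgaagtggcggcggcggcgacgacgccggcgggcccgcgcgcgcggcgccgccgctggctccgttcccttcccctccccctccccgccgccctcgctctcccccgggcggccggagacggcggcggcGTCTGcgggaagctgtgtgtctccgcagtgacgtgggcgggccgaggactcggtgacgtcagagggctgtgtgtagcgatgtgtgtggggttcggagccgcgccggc
Counting from the start, with -1 for the base before it, the matches in TGFB2 begin at -243 and -53, and the latter continues to the longer form CAGACA. In SMAD7 they begin at -217 and -128, in SKIL at -107 and in TGFBR1 at -213. All 9 genes had an entry in the promoter table, and the entry whose start is nearest to that of the canonical transcript was searched on both strands, from 250 bases before the start to 50 after it. CAGAC was present in 6 of 9, against 45.3% of the 35116 promoters in the table. CAGACA, which overlaps CAGAC, was present in TGFB2 and INHBA (2 of 9), against 16.9% of all promoters. The palindrome GTCTAGAC was in 0 of 9 and in 0.202% of all promoters, and TGANTCA, the AP-1 element, was in TGFBR2 alone among the 9 and in 7.71% of all promoters. These matches are letters in a window and say nothing of binding.

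Among the ligands, TGFB1 was by far the more abundant TGF-beta. TGFB1 (ENSG00000105329, chromosome 19 from 41301587 to 41353922, minus strand) had an FPKM of 30.58 with DMSO and 30.94 with FIN56, from 4276.40 and 4269 expected counts. Its FPKM ratio was 1.01, whereas its count ratio was 0.959 (95% counting interval 0.919 to 1.001), so its direction depended on the measure. By TPM it was also above 1 (45.74 and 47.29), and by the deposited rlog values, a variance-damped log2 count, it was below (12.07 and 12.06). TGFB2 (ENSG00000092969, chromosome 1 from 218345336 to 218444619, plus strand), a second ligand isoform, was the weakest of the 9 genes, with an FPKM of 1.26 and 1.05. It had 268.23 expected counts with DMSO and 201.36 with FIN56, and a count ratio of 0.721 (0.597 to 0.868) beside an FPKM ratio of 0.833. The level of TGFB1 was 24.3 times that of TGFB2 with DMSO and 29.5 times with FIN56. TGFB3, the remaining isoform, had an FPKM of 0.76 and 0.61, and its counting interval of 0.621 to 1.03 held 1.

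INHBA (ENSG00000122641, chromosome 7 from 41667168 to 41705834, minus strand) encodes the subunit of activin A, a related ligand that also signals through SMAD2 and SMAD3. It had an FPKM of 33.60 in DMSO cells and 27.37 in FIN56 cells, and its ratio of 0.815 was the lowest of the 9 genes by FPKM. The expected counts were 11873 and 10546, and the count ratio was 0.853 (0.831 to 0.876). In the DMSO library INHBA lay above TGFB1, whose level was 0.91 of it, and in the FIN56 library below, where TGFB1 was at 1.13 of it. This swap by FPKM rests in part on the effective lengths, which differed between the libraries by -5.27% for TGFB1 and 4.75% for INHBA. FST, which encodes the activin-binding antagonist follistatin, was far more abundant than its target, with an FPKM of 263.88 and 194.18, and its ratio was 0.736. FST exceeded INHBA 7.85 times with DMSO and 7.09 times with FIN56, and its count ratio of 0.737 (0.725 to 0.749) lay below that of INHBA. FST lies outside the rule for named genes and was chosen after its values were seen.

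**Figure D2:**
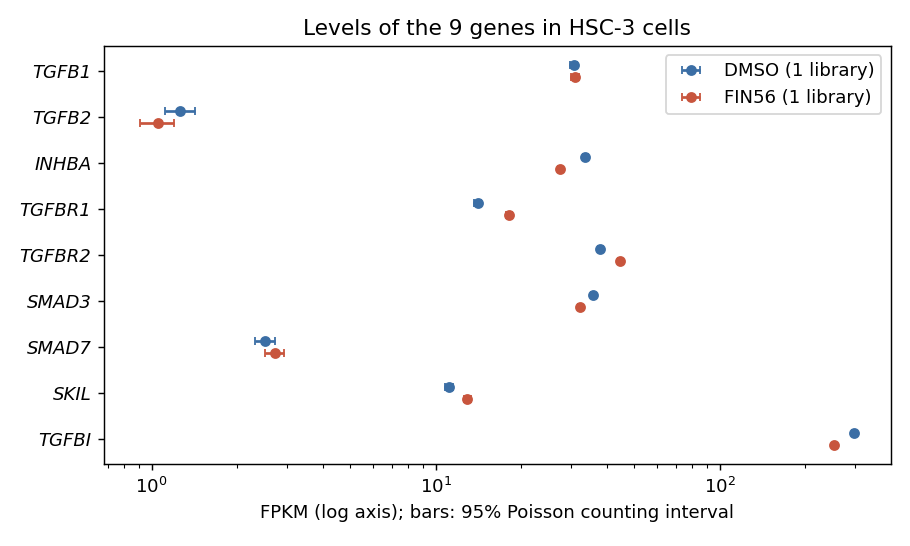
FPKM (x axis, log scale) of each of the 9 genes (y axis) in the DMSO library (blue) and the FIN56 library (red), with bars for the 95% Poisson counting interval of the count behind each value. TGFBI stands at 295.50 and 252.96, TGFBR2, SMAD3, INHBA and TGFB1 between 27.37 and 44.64, TGFBR1 and SKIL between 11.14 and 18.10, and SMAD7 and TGFB2 at or below 2.71.

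The receptors were both higher in the FIN56 library. TGFBR1 (ENSG00000106799, chromosome 9 from 99104038 to 99154192, plus strand), the type I receptor kinase, had an FPKM of 14.05 with DMSO and 18.10 with FIN56. Its ratio of 1.29 was the highest of the 9 genes, with 5250 and 6719 expected counts and a count ratio of 1.23 (1.186 to 1.275). TGFBR2 (ENSG00000163513, chromosome 3 from 30606601 to 30694142, plus strand), the type II receptor that binds the ligand, had an FPKM of 37.98 and 44.64. Its FPKM ratio and count ratio were nearly equal, at 1.175 and 1.173 (1.144 to 1.203), from 11029 and 13467 expected counts. TGFBR2 exceeded TGFBR1 2.70 times with DMSO and 2.47 times with FIN56. Of the genes with at least 50 expected counts, 33.9% had a larger FPKM change in either direction than TGFBR1, and 52.8% a larger one than TGFBR2. TGFBR3, the betaglycan co-receptor that presents TGF-beta2 to TGFBR2, had a higher ratio of 1.40 (359 and 530 expected counts, counting interval 1.24 to 1.63) at an FPKM of 0.88 and 1.23. Of the 9 TGF-beta and activin receptor genes listed, TGFBR1 and TGFBR2 included, 8 could be compared, of which 5 had a counting interval above 1 and 0 below 1, against 34.2% and 33.7% of all genes with at least 50 expected counts. Their median log2 FPKM ratio was 0.27, against 0.02 over all those genes. Without TGFBR1 and TGFBR2 it was 0.13, with 3 genes higher and 3 lower by FPKM.

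SMAD3 (ENSG00000166949, chromosome 15 from 67063763 to 67195173, plus strand), the transducer that binds DNA on ligand stimulation, was lower in the FIN56 library, with an FPKM of 35.70 and 32.13. Its count ratio was 0.915 (0.892 to 0.938), from 12490 and 11893 expected counts. The partners SMAD2 and SMAD4 were higher, with FPKM ratios of 1.13 and 1.16 and counting intervals of 1.05 to 1.18 and 1.11 to 1.24. The level of SMAD3 was thereby 2.24 times that of SMAD2 with DMSO and 1.79 times with FIN56. SMAD9, a transducer of bone morphogenetic protein (BMP) signals, had an FPKM ratio of 1.60, but rested on 21 and 30 expected counts, with a counting interval of 0.760 to 2.52.

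Both inhibitors that the pathway's own signal induces were higher in the FIN56 library. SMAD7 (ENSG00000101665, chromosome 18 from 48919853 to 48950965, minus strand), which blocks the type I receptor, had an FPKM of 2.51 with DMSO and 2.71 with FIN56. With 554 and 665 expected counts its count ratio was 1.15, and the interval of 1.03 to 1.29 came close to 1. SKIL (ENSG00000136603, chromosome 3 from 170357342 to 170396835, plus strand), which encodes the SMAD co-repressor SnoN, had an FPKM of 11.14 and 12.91 and a count ratio of 1.11 (1.065 to 1.163) from 3727 and 4317 expected counts. The level of SKIL was 4.44 times that of SMAD7 with DMSO and 4.76 times with FIN56. SKI, the paralog of SKIL, had an FPKM ratio of 1.36 and a lower count ratio of 1.27 (1.227 to 1.318). NEDD4L, a ubiquitin ligase for activated SMADs, had an FPKM ratio of 1.43 and a count ratio of 1.27 (1.223 to 1.324). Both genes were chosen after their values were seen. PMEPA1, a membrane protein that sequesters SMAD2 and SMAD3, had an FPKM ratio of 1.15, although its count ratio of 1.03 had an interval of 0.956 to 1.11. Over the 15 listed inhibitors, SMAD7 and SKIL included, the counting interval lay above 1 for 7, below 1 for 2 and held 1 for 6, and their median log2 FPKM ratio was 0.11. Without SMAD7 and SKIL the interval lay above 1 for 5 of 13 and the median was 0.03, beside 34.2% and 0.02 over all genes with at least 50 expected counts. The decoy receptor gene BAMBI, whose interval lay above 1, was under that minimum.

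TGFBI (ENSG00000120708, chromosome 5 from 136028988 to 136063818, plus strand), which encodes a secreted matrix protein named for its induction by TGF-beta, was the most abundant of the 9 genes. Its level was 295.50 FPKM for DMSO and 252.96 for FIN56, a ratio of 0.856, and its count ratio was 0.833 (0.822 to 0.844) from 44777 and 38819 expected counts. TGFBI thus lay on the other side of 1 from SMAD7 and SKIL, which TGF-beta also induces.

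**Figure D3:**
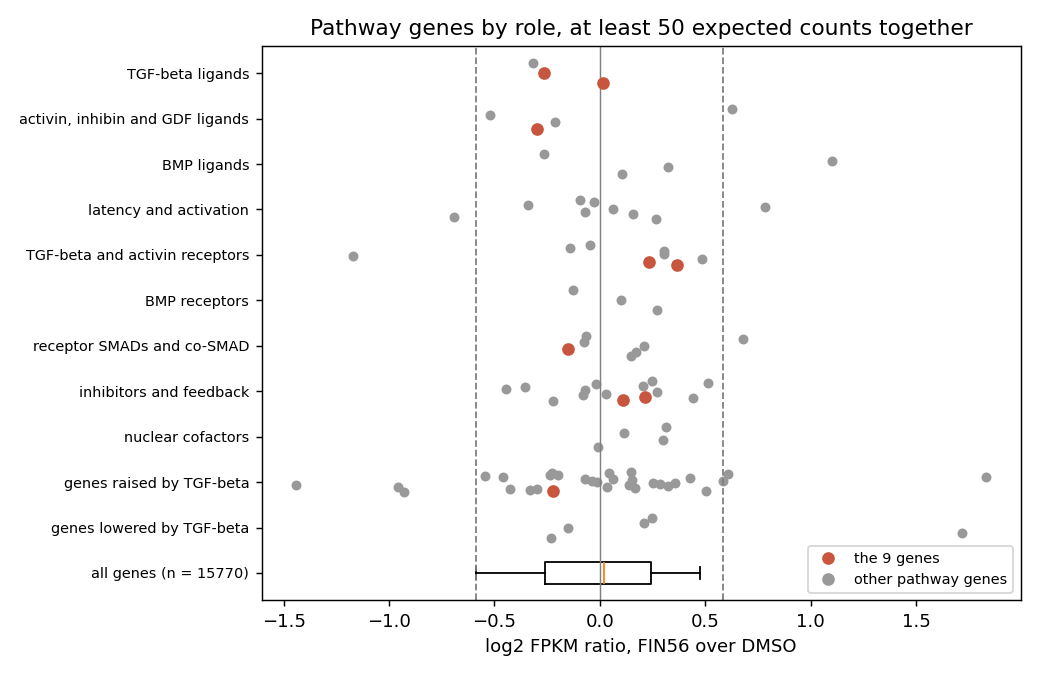
log2 FPKM ratio, FIN56 over DMSO (x axis), of the pathway genes with at least 50 expected counts together, by role (y axis), with the 9 genes in red and the others in gray. Dashed lines mark a ratio of 1.5 either way, and the box gives the quartiles and median of all 15770 such genes, with whiskers at percentiles 10 and 90. The red points lie between -0.30 and 0.37, inside the dashed lines, while the gray points of the response genes spread from -1.44 to 1.83.

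The wider pathway was read from 101 other genes, of which 92 had an FPKM above 0 in both libraries. Of these, 10 had an FPKM ratio of 1.5 or more (10.9%) and 9 had one of 1/1.5 or less (9.78%), against 14.7% and 17.3% of all genes. With at least 50 expected counts, 8 of 83 genes were at 1.5 or more and 5 at 1/1.5 or less, or 15.7% either way, against 17% of all genes. At this minimum the share at 1.5 or more was 9.64%, against 6.84% of all genes, and the share at 1/1.5 or less was 6.02%, against 10.1%. Among those at 1.5 or more, SMAD9, ZEB1 and LIF had count ratios whose counting interval held 1. Over the 92 genes, count ratios scaled by library totals put 7 at 1.5 or more and 9 at 1/1.5 or less. These shares rest on few genes and were not tested. The median log2 FPKM ratio of the 83 genes was 0.06.

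The 13 genes past the threshold with at least 50 expected counts included ligands, matrix genes and regulators. Lower in the FIN56 library were COL7A1, the anchoring fibril collagen, with an FPKM of 41.79 and 15.41 (ratio 0.369), and COL1A1, a fibrillar collagen chain, with 4.25 and 2.19 (0.515). LTBP2, a matrix protein of the latent TGF-beta binding family with an FPKM of 13.33 and 8.25 (0.619), was also lower, and the counting intervals of these 3 genes lay below 1. Higher were ANGPTL4, a secreted inhibitor of lipoprotein lipase, with 62 and 202 expected counts (FPKM ratio 3.56, counting interval 2.34 to 4.23), and ITGB6, with an FPKM of 6.79 and 11.67. ITGB6 encodes the beta subunit of the epithelial integrin that releases active TGF-beta from its latent form, and its FPKM ratio of 1.72 stood beside a count ratio of 1.5 (1.42 to 1.59). The stress-responsive ligand GDF15 (1.54, from 44 and 71 expected counts), the ligand BMP8A (2.14, from 27.48 and 62.45) and the transcriptional inhibitor ID2 (3.29, from 18 and 41) were higher at low counts. For ID2 the count ratio was lower than the FPKM ratio, at 2.19 (1.23 to 4.05).

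For 4 of these 13 genes the counting interval of the count ratio held 1. They were ENG, an endothelial co-receptor (FPKM ratio 0.444, count ratio 0.624, 40 and 26 expected counts), SMAD9, ZEB1 and LIF. ZEB1, a repressor of epithelial genes, lay at an FPKM ratio of 1.5 with a count ratio of 1.05 (0.791 to 1.39), and LIF, a cytokine, at 1.53 with one of 1.19 (0.990 to 1.44). CCN2, a matricellular growth factor, was below the threshold with an FPKM of 8.33 and 11.82 (ratio 1.42, counting interval 1.32 to 1.52).

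The 35 genes known to be raised by TGF-beta, TGFBI included, had no common direction. Of the 33 that could be compared, the counting interval lay above 1 for 10, below 1 for 11 and held 1 for 12, against 34.2% above and 33.7% below over all genes with at least 50 expected counts, and the median log2 FPKM ratio was 0.03. With at least 50 expected counts together, 31 of these genes remained, with 10 above 1 and 11 below. On the higher side stood the transcription factor genes KLF10 (FPKM 20.35 and 26.06) and JUNB (63.39 and 77.29). On the lower side, with TGFBI, stood FN1, the gene of fibronectin (16.53 and 12.32), and CCN1, a matricellular factor (142.62 and 113.50). The matrix gene TNC was nearly level at 53.82 and 55.52, and these 5 examples were chosen after their values were seen.

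The remaining roles were mixed as well, and their counts stand beside an interval above 1 in 34.2% and below 1 in 33.7% of all genes with at least 50 expected counts. Of the 8 activin, inhibin and GDF ligand genes that could be compared, INHBA included, the counting interval lay above 1 for 1 and below 1 for 3. With at least 50 expected counts together, 4 of these genes remained, with 1 above and 2 below. Of 9 genes for latency and activation of the ligands the interval lay above 1 for 3 and below 1 for 4. The receptor SMAD and co-SMAD list held 7 genes, SMAD3 and the adaptor gene ZFYVE9 included. In that list the interval lay above 1 for 4 and below 1 for 2, namely SMAD3 and ZFYVE9. For the 4 genes compared in the nuclear cofactor list, which also holds the deubiquitinase gene USP15 (above 1), the counts were 2 and 1. For the 5 genes known to be lowered by TGF-beta they were 3 and 1. These lists are short, and their shares were not tested.

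FPKM is divided by an effective length that is estimated separately per library, and this length, recovered here from the count, the FPKM and the library total, differed between the libraries. It was shorter with FIN56 for 6 of the 9 genes and longer for 3. The widest difference was in TGFB2, with 3033 bases with DMSO and 2625 with FIN56 (-13.4%), which is the gap between its FPKM ratio and its lower count ratio. TGFB1 went from 1993 to 1888 bases (-5.27%), which is how an FPKM ratio above 1 came from a count ratio below 1, and SMAD7 from 3145 to 3359 (6.8%). TGFBR2 was nearly the same in both, at 4138 and 4129 bases. GENCODE lists 4 transcripts for TGFB2, from 405 to 5868 bases long, and 18 for SMAD3, from 542 to 6464, and which of them were present was not tested.

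**Figure D4:**
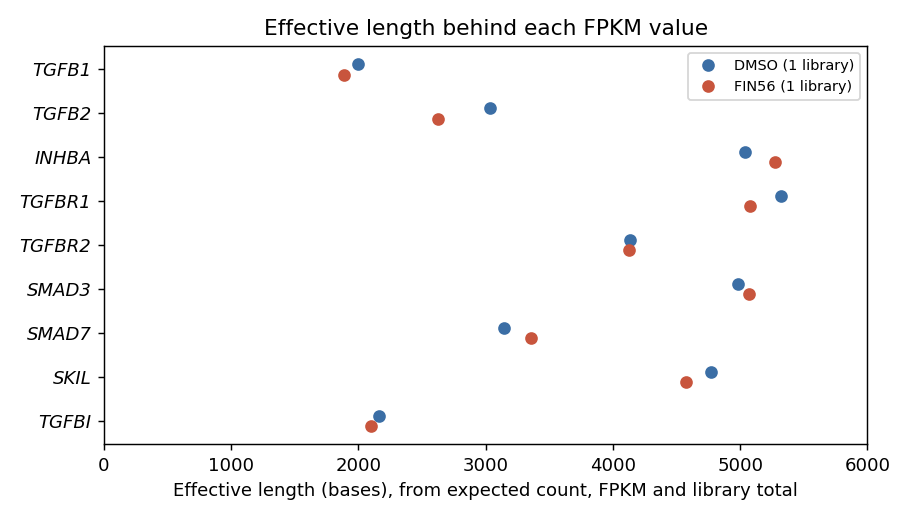
Effective length in bases (x axis) behind the FPKM of each of the 9 genes (y axis) in the DMSO library (blue) and the FIN56 library (red). TGFB2 shows the widest gap, from 3033 to 2625 bases, and TGFBR2 nearly none.

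Expected counts were whole numbers for 7 of the 9 genes, which gives no sign of reads shared with another gene. They were not whole for TGFB1 and TGFB2. TGFB2-OT1, a non-coding RNA gene on the same strand inside TGFB2, had 18.77 and 25.64 expected counts, and with these added to TGFB2 the count ratio was 0.76. TGFB1 overlaps HNRNPUL1, CCDC97 and TMEM91 on the opposite strand, of which HNRNPUL1 held 18351 and 17751 expected counts. It also overlaps a long non-coding RNA gene on its own strand, ENSG00000286177, with 90.81 and 57.67 expected counts. The kit marks strand, per the labels, but the strand setting used in counting was not given in the sources used here, so reads of TGFB1 and these genes may not be fully told apart.

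Ordered by FPKM, the 9 genes in DMSO cells were TGFBI, TGFBR2, SMAD3, INHBA, TGFB1, TGFBR1, SKIL, SMAD7 and TGFB2, and the Poisson counting intervals of neighbours did not overlap. These intervals leave out any error in the effective length, so the order of close neighbours such as SMAD3 and INHBA is not settled by them. In the FIN56 library TGFB1 and INHBA changed places by FPKM, in part through effective lengths that differed by -5.27% for TGFB1 and 4.75% for INHBA. In that library the intervals of SMAD3 (31.56 to 32.71) and TGFB1 (30.02 to 31.88) overlapped, so their order was not set by the counts.

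**Figure D5:**
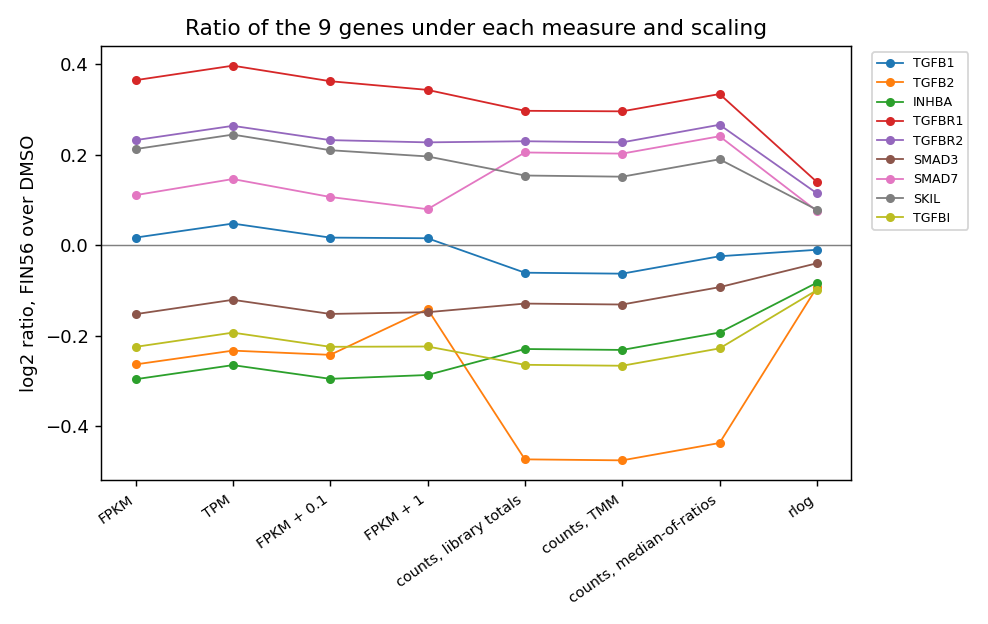
log2 ratio, FIN56 over DMSO (y axis), of the 9 genes (colored lines) under 8 measures and scalings of the same 2 libraries (x axis). TGFB1 crosses 0 between the FPKM-based and the count-based measures, and the rlog values draw all genes towards 0.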

How the data were processed

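RNA of 2 HSC-3 cultures was sequenced. By the methods and the submitters' processing notes, the authors aligned reads with STAR 2.6.1a to GRCh38 and quantified genes with RSEM 1.3.1. The methods describe these steps for tumor libraries, and the notes name the same tools for these libraries. Expected counts were deposited without normalization. FPKM, deposited with 2 decimals, corrects for sequencing depth and effective length, and the deposited TPM gives each library the same sum. The authors computed rlog values, which are log2 values, with DESeq2 1.26.0. Each of the 8 columns carries the title of its library.

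Ratios were FIN56 over DMSO of deposited FPKM, for genes above 0 in both. Count ratios used expected counts rounded to whole numbers, scaled by library totals, with exact Clopper-Pearson 95% intervals, and levels used exact Poisson intervals. The reads carry no molecular identifiers and may be copies of 1 molecule, so intervals cover counting error only. With 1 library per condition no test was possible. The 9 genes and the pathway lists were chosen with earlier results of these data known. Named were the 9 genes, other pathway genes past 1.5 either way with at least 50 expected counts together, and SMAD2, SMAD4, TGFB3, TGFBR3, CCN2 and PMEPA1. Certain genes that this rule names are not reported here. Alternatives included edgeR 4.0.16 TMM and DESeq2 1.42.0 size factors. The calculation of the intervals was checked on simulated Poisson counts, which hold counting error only and no spread between cultures. Positions came from GENCODE release 44 on GRCh38, in which 99.7% of the deposited identifiers were found, and promoters from RefSeq (GRCh38.p14). Proteins were not analysed here. The software was R 4.3.3 and Python 3.11.15 (scipy 1.17.1).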

Additional observations from a re-analysis of the deposited data

How the results depend on the processing

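No paired analysis was possible because there is only 1 library of DMSO and 1 of FIN56, so that no replicate could be left out either. None of the 9 genes was past 1.5 either way under TPM, rlog, TMM, median-of-ratios, library totals, either pseudocount (0.1 or 1 FPKM) or a threshold of 2. Direction was the same in all 8 measures for 8 of the 9 genes. TGFB1 was above 1 by FPKM, TPM and both pseudocounts, and below 1 by TMM (0.958), median-of-ratios (0.984), library totals (0.959) and rlog (0.993). TGFBR1 ranged from 1.10 to 1.32, TGFB2 from 0.719 to 0.938 and INHBA from 0.815 to 0.945. Of the 92 other pathway genes compared, 10 were at 1.5 or more and 9 at 1/1.5 or less, against 14.7% and 17.3% of all genes. These counts became 8 and 5 of 83 with at least 50 expected counts together, against 6.84% and 10.1% of all genes. Where both libraries had to reach an FPKM of 1 they were 1 and 4 of 66. A pseudocount of 0.1 gave 5 and 6 of 101, and one of 1 gave 2 and 4. A threshold of 2 gave 4 and 4, TPM 8 and 8, and rlog values 0 and 1. Count ratios gave 7 and 9 under TMM, median-of-ratios and library totals. Shares over all genes were taken only without a filter and at the minimum of 50. The filters leave fewer genes, and the pseudocounts and rlog draw low genes together by construction. The median of all genes moved by less than 0.1 on the log2 scale under every scaling run. Adding TGFB2-OT1 to TGFB2 was chosen after seeing the data. Depth limits TGFB2 and SMAD7 most.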

Other observations

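The BMP arm of the family was measured beside the TGF-beta arm. Of 7 BMP ligand genes, 5 had an FPKM above 0 in both libraries, and the counting interval lay above 1 for 2 and held 1 for 3. BMP2, the most abundant of them, had an FPKM of 4.78 with DMSO and 5.15 with FIN56, and BMP4 had 1.28 and 1.60. Of the 4 BMP receptor genes, 2 had an interval above 1 and 1 below 1. With at least 50 expected counts together, 4 ligand genes remained, with 2 above 1 and 0 below. At that minimum 3 receptor genes remained, with 2 above and 1 below. Over all such genes the shares were 34.2% above and 33.7% below. The BMP response genes ID1 and ID3 had FPKM ratios of 0.851 and 0.90, while ID2 was at 3.29 on few reads (2.19 by counts). All of these ID genes were already counted above among the genes lowered by TGF-beta. BAMBI, a decoy receptor, had 2 and 11 expected counts. These genes were chosen after their values were seen, except ID2.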
